A study of Homo sapiens with 24 samples.

Results

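Cytosolic ribosomal protein genes encode the protein part of the ribosome that translates messages from the nucleus. The 56 genes described here were chosen by name, as the rows of the count and TPM tables whose gene id belongs to a listed RPL, RPS or RPLP symbol, without pseudogenes. All 56 were found among the 37247 gene ids, and all 56 had enough counts to be among the 14986 genes tested. 22 encode proteins of the small subunit and 34 proteins of the large subunit, including the 3 stalk proteins RPLP0, RPLP1 and RPLP2.

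RNA was sequenced from 24 libraries of MDA-MB-231, an established human breast cancer cell line, to see how overexpression of the SRF coactivator MRTF-A changes gene expression. 4 engineered lines were used: a control line, and lines overexpressing wild-type MRTF-A (WT) or a mutant named dSAP or dSRF, names that the labels leave unexplained. Each line was grown in 2D, flat on plates, or in 3D, on matrigel (a gel of basement membrane proteins), with 3 libraries per line and culture. Doxycycline, the inducer, was given at 1 ug/ml for 72 h to all 4 lines, so the control groups carry it too and no group lacks it. Whether replicates came from separate cultures, or a line from 1 clone, is not stated in the labels, and p-values therefore measure the spread between these libraries, which may be technical.

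A ribosome carries nearly every ribosomal protein in a single copy, so cells make these proteins in balanced amounts. Their messages are short and abundant, and start with a run of pyrimidines (C and T) called a 5′ terminal oligopyrimidine tract, or TOP, through which mTOR signalling and the protein LARP1 control their translation and stability. In breast cancer lines, as in other growing cells, ribosome production is among the largest costs of growth.

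Most of these genes share a pyrimidine run at the start of the message. RefSeq promoters (GRCh38.p14) were available for 47 of the 56 genes. The windows below run from 15 bases before the annotated start to 15 bases from it on, and are shown for members with large falls in the line comparisons (RPS12, RPS3, RPL12, RPL28), for RPS6 and RPLP0, and for members with small changes (RPL9, RPL38). Capitals mark the longest run of C and T in the window, 5′ to 3′ on the transcribed strand.
RPS12: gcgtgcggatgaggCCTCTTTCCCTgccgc
RPS3: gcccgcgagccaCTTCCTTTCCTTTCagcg
RPS6: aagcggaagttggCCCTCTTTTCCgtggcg
RPL12: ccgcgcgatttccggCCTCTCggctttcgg
RPL28: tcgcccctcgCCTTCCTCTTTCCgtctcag
RPLP0: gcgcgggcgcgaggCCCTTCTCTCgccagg
RPL9: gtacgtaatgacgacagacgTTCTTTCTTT
RPL38: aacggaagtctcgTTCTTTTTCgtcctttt
These windows lie at chr6:132814554-132814583 (RPS12, plus strand), chr11:75399503-75399532 (RPS3, plus strand), chr9:19380222-19380251 (RPS6, minus strand), chr9:127451392-127451421 (RPL12, minus strand), chr19:55385917-55385946 (RPL28, plus strand), chr12:120201097-120201126 (RPLP0, minus strand), chr4:39458908-39458937 (RPL9, minus strand) and chr17:74203663-74203692 (RPL38, plus strand). A run of at least 8 C or T letters on the transcribed strand was present at 1 or more annotated starts of 39 of the 47 genes (83%), against 16.5% of the 27305 genes of the promoter table. The run was found in RPL9 and RPL38 as well as in RPS12 and RPL28, and it was shorter than 8 in RPL12. The share was 75% for 12 other TOP messages, 14.7% for 68 mitochondrial ribosomal protein genes and 15% for 40 short subunits of the respiratory chain. The letters CGGAAG, which ETS family factors bind, stood on either strand of the 300 bases around the start in 61.7% of the 47 genes, 54.4% of the mitochondrial ribosomal protein genes and 22.6% of all genes. The CArG box, the motif of SRF, was matched on either strand in 3 of the 47 genes, RPL24, RPS27A and RPS28 (6.38%, against 1.6% of all genes). A match of letters is a description and does not show binding.

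Total counts ran from 13968829 to 23023415 per library. Titles and the genotype field of the labels disagree for 16 of the 24 libraries. Groups follow the titles, and MRTFA stood at 28.8 to 39.1 CPM (counts relative to library size, TMM-normalised) in the libraries titled control and at 3170 to 10720 CPM in the others, apart from the library titled 3D dSRF 1 at 664 CPM. That library also differs from the other 3D dSRF libraries for the ribosomal protein genes and enters every 3D dSRF value. Many of the values it moves by over 1.5 times are also given without it, but not all. MDA-MB-231 markers were present (VIM at 1331 to 2372 TPM), and ESR1, PTPRC and PECAM1 reached at most 0.23, 0.0417 and 0.253 TPM. Other genes checked as likely absent were measurable: EPCAM (24.96 to 263.7 TPM), CD68 (27.3 to 208 TPM), GATA3 (9.08 to 35.3 TPM) and ERBB3 (4.07 to 16.2 TPM). Of the fibroblast markers, COL1A1 stood at 7.78 to 110 TPM, PDGFRB and LUM reached 19.6 and 18.7 TPM, and DCN and PDGFRA at most 0.263 and 0.384 TPM. The endothelial markers KDR and VWF reached 6.98 and 10.55 TPM.

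Together the 56 genes took up a smaller part of the library in every MRTF-A line than in control. In 2D control they held 2.16, 2.12 and 2.12% of all counts, against 1.63, 1.66 and 1.64% in WT, 1.61, 1.65 and 1.61% in dSAP and 1.55, 1.63 and 1.55% in dSRF. In 3D control they held 1.95, 2.08 and 1.96%, against 1.38, 1.45 and 1.48% in WT, 1.48, 1.52 and 1.54% in dSAP and 1.68, 1.25 and 1.34% in dSRF. No library of an MRTF-A line overlapped the control libraries of its culture. The highest value among the 3D MRTF-A lines was the 3D dSRF 1 library. These are shares of the RNA sequenced, and less RNA per cell cannot be told apart from more RNA of other genes.

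**Figure D1:**
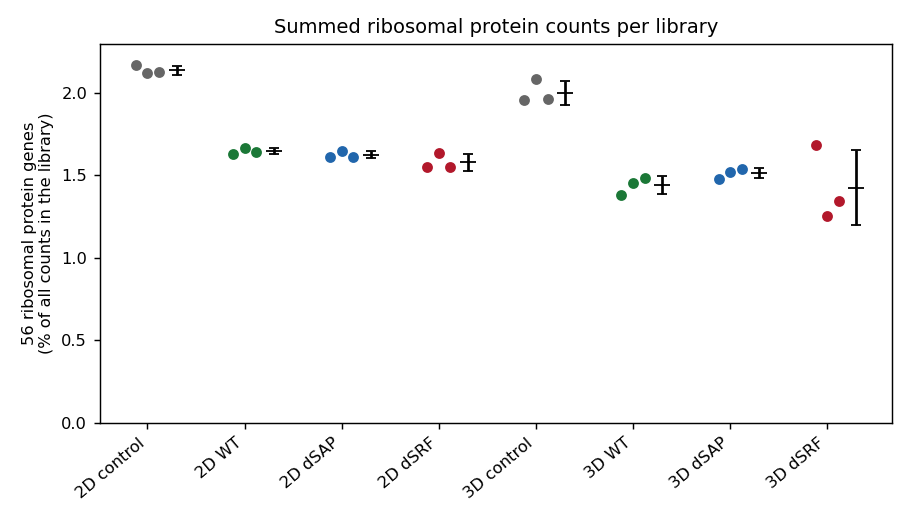
Share of all counts held by the 56 ribosomal protein genes, in percent, for each of the 24 libraries (points, 3 per group), with the group mean and SD (black). The control libraries of each culture lie above all libraries of the 3 MRTF-A lines in that culture, and 3D dSRF holds 1 library at 1.68% above the others at 1.25% and 1.34%.

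Gene by gene, ribosomal protein messages were lower in all 3 MRTF-A lines in 2D, with most calls in dSRF, where more of all genes were called too. Each change is given as log2 fold change ± its standard error from the model (3 libraries per group), and a gene was called at an adjusted p under 0.05 in edgeR's quasi-likelihood test with Benjamini-Hochberg adjustment over all 14986 genes. In 2D WT, 26 of 56 were called lower, where 19.2% of all genes were. In 2D dSAP, 45 were called lower (all genes 15.4%), and in 2D dSRF 53 (all genes 31.5%). None of the 56 was called higher in any of these comparisons (all genes 20.1%, 17.5% and 34.5%). The median changes were -0.24, -0.34 and -0.46 in WT, dSAP and dSRF, and the medians of all genes -0.02, -0.01 and 0.02. All 3 libraries of the line lay below all 3 of control for 46, 51 and 54 members, against 30.2%, 26.6% and 35.8% of all genes. The 3 lines were compared with the same 3 control libraries, so these comparisons are not independent of each other. Without the 3D dSRF 1 library, which enters the shared estimate of the spread, 43 members were called lower in 2D WT (all genes 26.6% in that fit). The 2D WT count was also 12 and 17 without 2D control 1 or 3, and 9, 16 and 16 without 2D WT 1, 2 or 3.

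In 3D the same direction was measured from other libraries. 42 members were called lower in WT (all genes 17%), 45 in dSAP (all genes 13.1%) and 53 in dSRF (all genes 31.3%), and none higher (all genes 18%, 16.5% and 35.1%). The medians were -0.34, -0.33 and -0.42, with -0.02, 0.00 and 0.02 for all genes. All libraries lay below control for 50, 51 and 39 members (all genes 28.5%, 25.5% and 28.8%). Fitted with only the 6 libraries compared, the count in 3D dSRF was 27 (the share of all genes in that fit is not given). Without the 3D dSRF 1 library it was 55 (all genes 35.6% in that fit), with a median of -0.58.

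Over the 6 comparisons with control, 335 of the 336 fold changes were below 0, and the exception was RPL9 in 3D WT. 24 members were called lower in all 6, 15 in 5, 5 in 4, 5 in 3, 4 in 2 and 2 in 1. For these tallies over the 6 comparisons the share of all genes was not measured, and the comparisons within a culture share their control libraries. The 24 called in all 6 became 9 without 2D WT 1, 12 without 2D control 1, and 43 without 3D dSRF 1, and 39 by limma on log2 TPM and 45 with library totals alone. RPL9 was called in none, although without 3D dSRF 1 it was called lower in 2D dSAP, 3D dSAP and 3D dSRF. Small and large subunit genes had like medians: -0.25, -0.31 and -0.46 and -0.23, -0.34 and -0.46 in the 2D WT, dSAP and dSRF lines, and -0.37, -0.31 and -0.46 and -0.34, -0.34 and -0.42 in 3D.

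**Figure D2:**
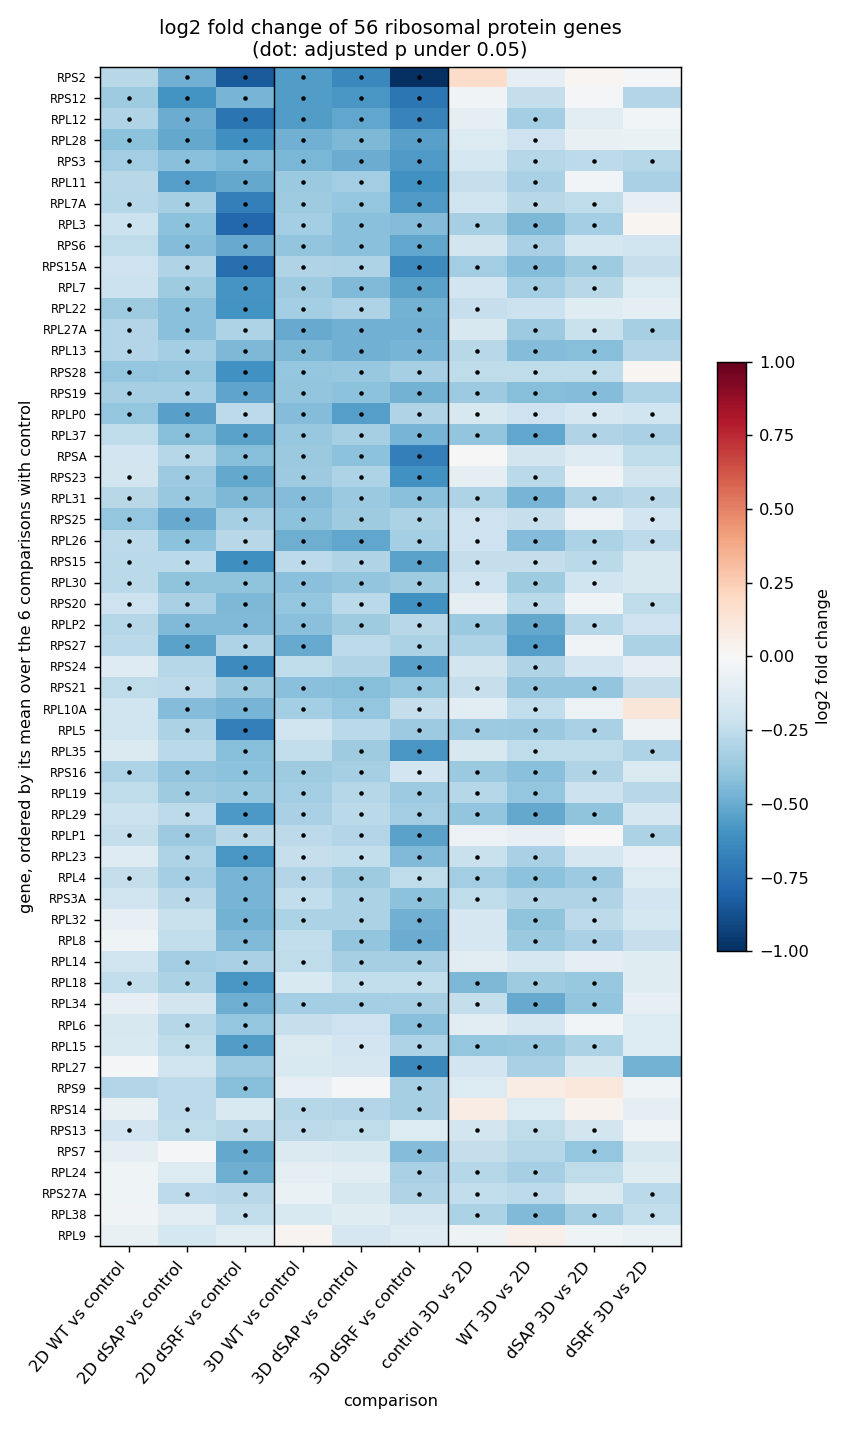
log2 fold change (colour) of each of the 56 genes (rows, ordered by the mean over the 6 comparisons with control) in 10 comparisons (columns: 3 lines against control in 2D, the same in 3D, and 3D against 2D in each line). Black dots mark adjusted p under 0.05; nearly all cells of the first 6 columns are blue, darkest for RPS2 in dSRF, and RPL9 in the last row is near 0.

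Among small subunit genes, RPS2, whose protein lies near the mRNA entry channel, had the largest mean fall. It stood at 721, 732 and 739 CPM in 2D control, 599, 594 and 612 in WT, 521, 526 and 523 in dSAP and 394, 402 and 427 in dSRF. No MRTF-A library reached the lowest control library, and the dSRF libraries lay below those of both other lines. The changes were -0.28 ± 0.13 (adjusted p = 0.107) in WT, -0.48 ± 0.13 (adjusted p = 0.00888) in dSAP and -0.84 ± 0.13 (adjusted p = 1.89e-05) in dSRF. In 3D it stood at 821, 866 and 798 CPM in control, 556, 567 and 567 in WT, 508, 549 and 535 in dSAP and 568, 319 and 326 in dSRF. The first dSRF library was level with WT and the others were far lower. The 3D changes were -0.56 ± 0.13 in WT, -0.64 ± 0.13 in dSAP and -1.03 ± 0.13 in dSRF, and -1.36 ± 0.04 in dSRF without its first library.

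RPS12, another small subunit protein, was lower in all 6 comparisons. It stood at 208, 192 and 196 CPM in 2D control, 149, 161 and 154 in WT, 129, 141 and 125 in dSAP and 137, 159 and 136 in dSRF. In 3D it stood at 195, 207 and 180.2 CPM in control, 122, 139 and 134 in WT, 131, 118 and 140.1 in dSAP and 144, 91.7 and 116 in dSRF. No MRTF-A library overlapped control in either culture. The changes were -0.36 ± 0.11, -0.59 ± 0.11 and -0.47 ± 0.11 in the 2D WT, dSAP and dSRF lines, and -0.56 ± 0.11, -0.58 ± 0.11 and -0.73 ± 0.11 in 3D.

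RPS3, which also has a role in DNA repair, was called lower in all 6 comparisons, from -0.35 ± 0.09 in 2D WT to -0.56 ± 0.09 in 3D dSRF. It averaged 668 ± 32.4 CPM (SD, n = 3) in 2D control and 486 ± 22.2 in 2D dSRF. RPS6, the substrate of S6 kinase that reports mTOR activity when phosphorylated, averaged 429 ± 13.0 CPM in 2D control, 359 ± 4.96 in WT, 317 ± 11.1 in dSAP and 302 ± 10.5 in dSRF. It was called in every line and culture other than 2D WT (-0.25 ± 0.11 (adjusted p = 0.0665), and -0.25 ± 0.05 (adjusted p = 0.000175) without 3D dSRF 1), with -0.51 ± 0.11 (adjusted p = 0.000374) in 2D dSRF. RPSA, which is also known as the laminin receptor, stood at -0.19 ± 0.11 (adjusted p = 0.17) in 2D WT and -0.29 ± 0.11 (adjusted p = 0.0415) in 2D dSAP, a call lost when any 1 of 19 libraries was left out. Its largest change was -0.68 ± 0.11 (adjusted p = 1.15e-05) in 3D dSRF.

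RPS15A in dSRF changed by -0.75 ± 0.11 in 2D and -0.64 ± 0.11 in 3D, and stood at 206, 192 and 207 CPM in 2D control against 116, 122 and 121 in 2D dSRF. RPS28, 8.8% of whose combined counts lie in pseudogene rows, was called in all 6 comparisons, with -0.39 ± 0.09 (adjusted p = 0.00114) in 2D WT, and stood at -0.33 ± 0.09 in 3D dSRF and -0.52 ± 0.04 without the 3D dSRF 1 library. RPS25, needed for initiation on some viral and cellular internal entry sites, had the largest of its 6 changes in 2D dSAP (-0.51 ± 0.06 (adjusted p = 2.12e-06)). RPS27A, made as a fusion of ubiquitin and a ribosomal protein, was not called in WT (-0.04 ± 0.09 (adjusted p = 0.742) in 2D, -0.06 ± 0.09 (adjusted p = 0.645) in 3D) and was called lower in dSRF in both cultures (-0.30 ± 0.09 (adjusted p = 0.00615) in 3D). RPS27A was also called lower in 2D dSAP, a call lost when any 1 of 5 libraries was left out. RPS7 was called in dSRF alone of the 3 lines (-0.51 ± 0.14 (adjusted p = 0.00371) in 2D, -0.44 ± 0.14 (adjusted p = 0.0105) in 3D). It stood at 212, 242 and 204 CPM in 3D control and 227, 119 and 139 in 3D dSRF, where the first library was level with control and the others lay below it. Its 3D change was -0.77 ± 0.06 (adjusted p = 6.56e-11) without 3D dSRF 1, a fit in which RPS7 was also called lower in 3D WT and 3D dSAP, and the dSRF call was lost without 3D control 2, 3D dSRF 2 or 3D dSRF 3. RPS9 was the lowest of all members per length, at 55.8 ± 6.40 TPM in 2D control. Whether reads of RPS9 were split among alternate copies of its region in the build was not tested. RPS9 was called lower in 2D dSRF, where its fall was largest (-0.43), a call lost when any 1 of 3 libraries was left out. It was also called in 3D dSRF (-0.33 ± 0.14 (adjusted p = 0.0458)) but not without 3D dSRF 1 (-0.29 ± 0.15 (adjusted p = 0.0901)).

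The stalk proteins recruit the translation factors that hydrolyse GTP. RPLP0, their anchor, stood at 1256, 1212 and 1285 CPM in 2D control, 954, 954 and 961 in WT, 838, 897 and 848 in dSAP and 1011, 1060.1 and 1054 in dSRF. In 3D it stood at 1117, 1156 and 1086 CPM in control, 858, 789.6 and 843 in WT, 761, 782 and 756 in dSAP and 1011, 833 and 886 in dSRF. The MRTF-A libraries lay below control throughout, and the dSAP libraries were the lowest in both cultures. The changes were -0.39 ± 0.06 (adjusted p = 1.29e-05), -0.54 ± 0.06 (adjusted p = 3.07e-07) and -0.26 ± 0.06 (adjusted p = 0.000328) in the 2D WT, dSAP and dSRF lines, and -0.43 ± 0.06, -0.55 ± 0.06 and -0.30 ± 0.06 in 3D. dSAP and dSRF were not tested against each other. RPLP1 and RPLP2, the acidic proteins that dimerise on RPLP0, were called lower in all 6 comparisons too. RPLP1 changed by -0.24 ± 0.07 to -0.36 ± 0.07 in 2D and reached -0.53 ± 0.07 in 3D dSRF. RPLP2 averaged 247 ± 8.44 CPM in 2D control and 182 ± 8.69 in 2D dSRF (-0.44 ± 0.08 (adjusted p = 4.32e-05)).

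**Figure D3:**
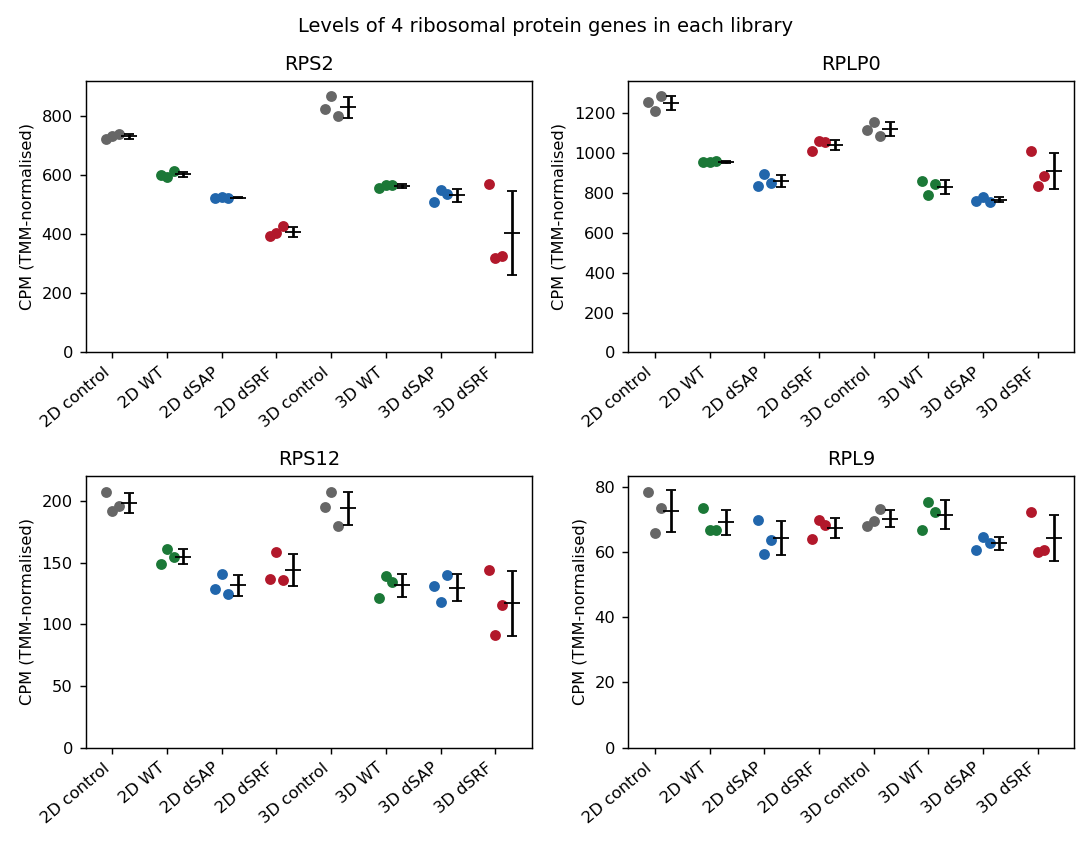
Level of RPS2, RPLP0, RPS12 and RPL9 in each library, in TMM-normalised CPM on a linear axis from 0 (points, 3 libraries per group; black, mean and SD). RPS2, RPLP0 and RPS12 lie below control in every MRTF-A library of their culture, and RPL9 overlaps control in every group other than 3D dSAP.

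RPL5 and RPL11 bind 5S ribosomal RNA and, when ribosome assembly stalls, also bind MDM2. RPL5 averaged 448 ± 7.73 CPM in 2D control, 391 ± 5.22 in WT, 361 ± 3.97 in dSAP and 279 ± 6.57 in dSRF. Its change in 2D was -0.20 ± 0.10 (adjusted p = 0.141) in WT, -0.31 ± 0.10 (adjusted p = 0.0236) in dSAP and -0.68 ± 0.10 (adjusted p = 8.68e-06) in dSRF. In 3D it was called in dSRF (-0.37 ± 0.10 (adjusted p = 0.00382)), at 349, 224 and 236 CPM against 333, 370.3 and 340.2 in 3D control. The first dSRF library lay within the range of control, and without it the change was -0.60 ± 0.05 (adjusted p = 5.7e-12). The call in 2D dSAP was lost when any 1 of the 2D control 1 and 3 or 2D dSAP 1, 2 and 3 libraries was left out. RPL11 stood at -0.28 ± 0.13, -0.55 ± 0.13 and -0.51 ± 0.13 in the 2D WT, dSAP and dSRF lines, with an adjusted p of 0.0892 in WT and of 0.00234 in dSAP. RPL22, a gene recurrently mutated in some tumours, was called lower in all 6 comparisons, from -0.31 ± 0.09 in 3D dSAP to -0.60 ± 0.09 in 2D dSRF.

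RPL12 and RPL28 had the largest mean falls among large subunit genes. RPL28 stood at 405, 413 and 426 CPM in 2D control, 315, 309.8 and 309 in WT, 281, 297 and 294 in dSAP and 269.7, 276 and 266 in dSRF, with no overlap between control and any line. Its change in 2D WT, -0.41 ± 0.06 (adjusted p = 7.55e-06), was the largest fall of a called member there. RPL12, at the base of the stalk, changed by -0.30 ± 0.09, -0.49 ± 0.09 and -0.73 ± 0.09 in the 2D WT, dSAP and dSRF lines, and by -0.56 ± 0.09, -0.52 ± 0.09 and -0.67 ± 0.09 in 3D. RPL3, which lies near the peptidyl transferase centre, stood at 654, 625 and 655 CPM in 2D control and 368, 386 and 369.5 in 2D dSRF, a change of -0.78 ± 0.06 (adjusted p = 1.7e-09). RPL7A changed by -0.68 ± 0.10 in 2D dSRF, and RPL26 and RPL27A by -0.52 ± 0.08 and -0.48 ± 0.09 in 3D dSAP.

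At the other end, RPL9 stood at 78.6, 65.8 and 73.7 CPM in 2D control, 73.7, 66.7 and 66.9 in WT, 70.0, 59.5 and 63.6 in dSAP and 64.1, 69.9 and 68.5 in dSRF. In 3D it stood at 68.1, 69.6 and 73.2, 66.9, 75.5 and 72.2, 60.7, 64.7 and 62.7 and 72.4, 60.0 and 60.6 CPM in the same order. The groups overlapped, except that the 3D dSAP libraries lay below 3D control. Its changes ran from -0.18 ± 0.08 (adjusted p = 0.0975) in 2D dSAP to 0.02 ± 0.08 (adjusted p = 0.856) in 3D WT. In 3D dSRF it stood at -0.13 ± 0.08 (adjusted p = 0.163), and at -0.22 ± 0.07 (adjusted p = 0.00598) without 3D dSRF 1. RPL38, a protein linked to the translation of Hox messages in the mouse, was called in 2D dSRF alone (-0.24 ± 0.08 (adjusted p = 0.0146)), a call lost without 2D control 2 or 2D dSRF 3. In 3D dSRF it stood at -0.17 ± 0.08 (adjusted p = 0.0772), and at -0.27 ± 0.08 (adjusted p = 0.00226) without 3D dSRF 1. RPL24 was called in dSRF in both cultures (-0.49 ± 0.11 (adjusted p = 0.000535) in 2D) and in neither other line. Its 3D change was -0.32 ± 0.11, or -0.54 ± 0.06 without 3D dSRF 1, a fit in which RPL24 was also called lower in 2D dSAP, and the 3D call was lost without 3D control 2, 3D dSRF 2 or 3D dSRF 3. Per length, RPL9 was next above RPS9, while RPL15 (3308 ± 69.4 TPM in 2D control) and RPS23 (2769.5 ± 67.8 TPM) were the highest, and RPL15 and RPS23 changed by -0.56 ± 0.06 and -0.51 ± 0.07 in 2D dSRF.

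The mutants were also tested against WT directly. In 2D, dSRF had 31 members called lower than WT (all genes 30.4%) and none higher (all genes 33.6%), with a median of -0.24. The largest called falls were RPL3 (-0.57 ± 0.06 (adjusted p = 1.74e-07)), RPS2 (-0.56 ± 0.13 (adjusted p = 0.00118)), RPS15A (-0.54 ± 0.11), RPS24 (-0.50 ± 0.12) and RPL5 (-0.49 ± 0.10). Other settings also called members higher in 2D dSRF than in WT. Without 3D dSRF 1, 43 were lower and 1 higher (all genes 33.9% and 36.8% in that fit). Library totals alone gave 14 lower and 4 higher, and limma on log2(TPM + 1) gave 15 and 4. The members' medians in those 2 settings were -0.047 and -0.055, and the medians of all genes 0.218 and 0.18. In 2D dSAP against WT, RPL3 was the only member called (-0.19 ± 0.06 (adjusted p = 0.0457), all genes 7.71% lower and 5.09% higher), the median was -0.12, and all dSAP libraries lay below WT for 36 members (all genes 22.3%). With only the 6 libraries compared, 33 members were called there. The count was 18, all lower, without 3D dSRF 1, where 15.02% of all genes were called lower and 12.66% higher. It was 4 without 3D dSRF 2, and 0 without 19 of the other libraries in turn. The share of all genes is not given for those fits or for the fit of 6 libraries.

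In 3D, dSRF had 14 members called lower than WT, a smaller share than that of all genes (31.6%), and 2 called higher (all genes 34.2%). The lower ones were led by RPL27 (-0.49 ± 0.16), RPS2 (-0.48 ± 0.13), RPS15A (-0.34 ± 0.11), RPL35 (-0.34 ± 0.10) and RPSA (-0.31 ± 0.11). The higher ones were RPLP0 (0.13 ± 0.06 (adjusted p = 0.0422)) and RPS16 (0.17 ± 0.07 (adjusted p = 0.0347)). Without the 3D dSRF 1 library, 42 members were called lower and none higher (all genes 36.3% and 36.5% in that fit). The members' median there was -0.28 and their lowest change -0.81, and RPLP0 and RPS16 stood at 0.05 ± 0.04 (adjusted p = 0.341) and 0.06 ± 0.05 (adjusted p = 0.283). With only the 6 libraries compared, none was called, and the count of 16 in both directions became 9 and 7 without 3D WT 2 or 3 and 9 and 4 without 3D dSRF 2 or 3. In 3D dSAP against WT, edgeR called no member (all genes 6.63% lower and 5.45% higher), and the median was -0.02. 1 member had an unadjusted p under 0.05 there, and DESeq2 called 0 and limma on log2 TPM called 1. Without 3D dSRF 1, edgeR called 3 lower, a smaller share than that of all genes (14.15% lower and 13.07% higher in that fit).

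By their median, ribosomal protein messages were also lower on matrigel than in plates within each line. 29 members were called lower in control (all genes 24.4%), 44 in WT (all genes 25.7%), 30 in dSAP (all genes 23.5%) and 12 in dSRF (all genes 9.84%), and none was called higher (all genes 23%, 24.4%, 24.2% and 7.19%). The medians were -0.21, -0.32, -0.24 and -0.17. The largest called falls in control were RPL18 (-0.45 ± 0.09 (adjusted p = 0.000355)), RPL29 (-0.40 ± 0.09), RPL37 (-0.39 ± 0.10), RPL15 (-0.38 ± 0.06) and RPLP2 (-0.37 ± 0.08). In WT they were RPS27 (-0.55 ± 0.13 (adjusted p = 0.00218)), RPL37 (-0.52 ± 0.10), RPLP2 (-0.51 ± 0.08), RPL29 (-0.51 ± 0.09) and RPL34 (-0.50 ± 0.09), and in dSAP RPS19 (-0.43 ± 0.11 (adjusted p = 0.00443)), a gene mutated in Diamond-Blackfan anaemia, and RPL13 (-0.43 ± 0.11). RPS2 and RPS12, which led the falls between lines, were not called in any line here, at 0.18 ± 0.13 (adjusted p = 0.283) and -0.03 ± 0.11 (adjusted p = 0.84) in control. Without 3D dSRF 1, 42 members were called lower and 1 higher in control (all genes 29.9% and 28.8% in that fit), with a highest change of 0.18. A count of 1 higher in control was also found with library totals alone, by limma on log2 TPM and with only the 6 libraries compared. In dSRF the count of 12 was 50 without the 3D dSRF 1 library (all genes 28.4% in that fit), with a median of -0.35, and 0 with only the 6 libraries compared. It was 1, 5 and 5 without 2D dSRF 2, 1 or 3, 2 without 3D dSRF 2 or 3, and 6 without 2D WT 1. The control count was 18, 19 and 15 without 2D control 1, 2 or 3 and 15 and 13 without 3D control 1 or 3, and the dSAP count 19 without 3D dSAP 1 or 2. Of 1066 other genes of like level, with a mean at or above the members' lower quartile (188 CPM), 549 were called lower in control, with a median of -0.19.

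The effect of a line was then compared between cultures by the interaction of line and culture. No member was called for WT (all genes 9.18%) or dSAP (all genes 2.34%) by edgeR, and 3 were called for dSRF. An unadjusted p under 0.05 was found for 1 member in WT and 0 in dSAP, and DESeq2 and limma called none in either. RPL3 was higher by 0.35 ± 0.09 (adjusted p = 0.00497) and RPL15 by 0.25 ± 0.09 (adjusted p = 0.0407) on the log2 scale, that is, they fell less in 3D, and RPLP1 stood at -0.26 ± 0.09 (adjusted p = 0.0482). All genes were called lower in 14.6% and higher in 14.7% of cases. Without the 3D dSRF 1 library 16 members were called lower and 2 higher for dSRF, where 24% and 19.9% of all genes were. In that fit 7 were called for WT and 1 for dSAP, smaller shares than those of all genes (23.9% and 11.4%). The dSRF count was 10 without 3D dSRF 2, 5 without 3D dSRF 3, and 1 without any 1 of 15 other libraries. The effects in 2D and in 3D come from separate libraries. Across the 56 members, which are not independent replicates, their Pearson correlation was 0.695 for WT, 0.679 for dSAP and 0.537 for dSRF.

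**Figure D4:**
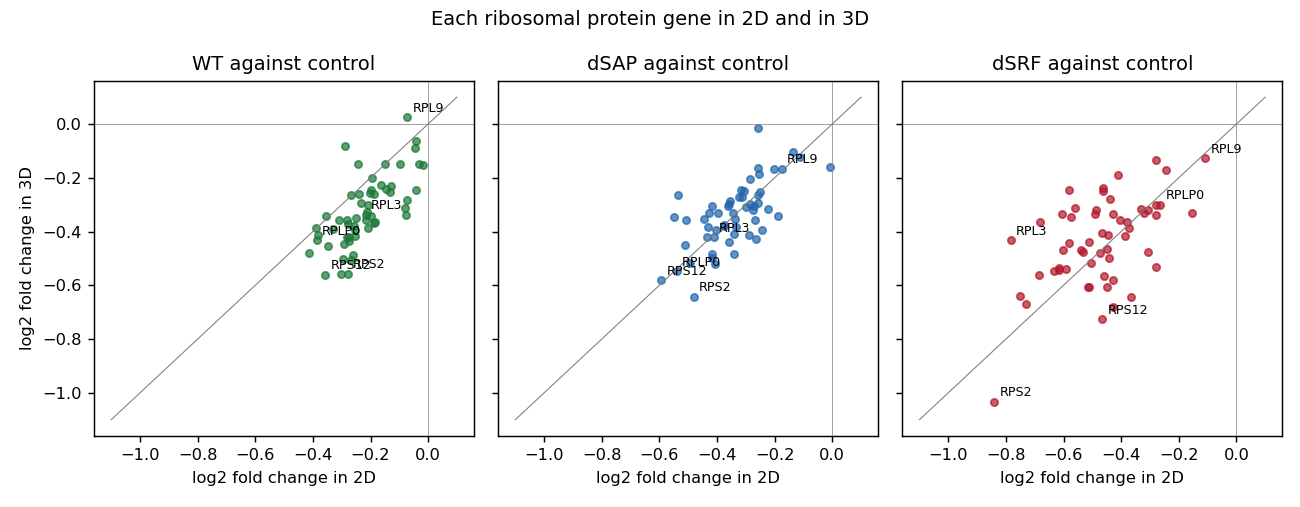
log2 fold change against control in 2D (horizontal) and in 3D (vertical) for each of the 56 genes (points), 1 panel per MRTF-A line, with the line of equal change in grey. Nearly all points lie below 0 on both axes; RPS2 and RPS12 lie at the low end, RPL9 near 0, and RPL3 in dSRF above the line of equal change.

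The library titled 3D dSRF 1 lay above both other 3D dSRF libraries for 55 of the 56 members, and at or above the lowest 2D dSRF library for 50. Libraries 2 and 3 lay below all 3D control libraries for all 56 members, and library 1 for 39. The same positions were not counted over all genes, so these counts do not show that library 1 stands apart for these genes in particular. The library also held less MRTFA (664 CPM, above) and more histone counts (0.188% of counts, against 0.0574% and 0.0634%). The part of these differences in the results was not tested beyond the fits without that library.

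Related gene groups were measured beside the 56. For reference, 19.2%, 15.4% and 31.5% of all genes were called lower in the 2D WT, dSAP and dSRF lines and 17%, 13.1% and 31.3% in 3D. The shares called higher were 20.1%, 17.5% and 34.5% in 2D and 18%, 16.5% and 35.1% in 3D. Of 22 other cytosolic ribosomal protein genes tested, 6, 16 and 17 were called lower in the 2D WT, dSAP and dSRF lines and 12, 13 and 18 in 3D, while 0, 0 and 2 were called higher in 2D and 0, 0 and 1 in 3D. Their medians were -0.20, -0.36 and -0.52 in 2D and -0.28, -0.39 and -0.52 in 3D. RPS4X (-0.86 ± 0.07 (adjusted p = 1.31e-09)) and RPL13A (-0.70 ± 0.07 (adjusted p = 3.8e-08)) were among the genes called lower in 2D dSRF. Of 18 other TOP messages, which encode translation factors and RNA-binding proteins, 7, 11 and 15 were called lower in 2D and 8, 9 and 10 in 3D, and 0, 0 and 1 higher in 2D and 0, 0 and 2 in 3D (EEF1D in 2D dSRF, EIF4B and EIF3H in 3D dSRF). PABPC1, the poly(A)-binding protein, averaged 2466 CPM in 2D control and 1457 in 2D dSRF (-0.76 ± 0.06 (adjusted p = 7.49e-10)), and NAP1L1, a histone chaperone, changed by -0.99 ± 0.09 in 3D dSRF. The proteins of the mitochondrial ribosome (76 genes) had medians of -0.01, 0.02, -0.02, -0.01, 0.02 and -0.03 in the 6 comparisons, with 6, 4, 19, 5, 4 and 16 called lower and 6, 3, 17, 3, 2 and 22 higher. Without 3D dSRF 1 the 3D dSRF counts were 41 lower and 16 higher (all genes 35.6% and 37.2% in that fit), with a median of -0.20. In that fit 19 of the other cytosolic ribosomal proteins and 11 of the other TOP messages were called lower in 3D dSRF.

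Of 63 factors that assemble ribosomes, 24 were called higher and 7 lower in 2D dSRF, a share of higher calls close to that of all genes (34.5%), of which 31.5% were called lower. In 3D dSRF 34 were called higher and 5 lower (all genes 35.1% and 31.3%), and the medians were 0.12 in 2D and 0.35 in 3D. Without 3D dSRF 1 the 3D counts were 28 higher and 20 lower, with a median of 0.06 (all genes 37.2% and 35.6%). RRP12, needed for export of both subunits, rose by 1.19 ± 0.08 (adjusted p = 2.35e-10) in 2D dSRF, and EFL1, a GTPase that releases EIF6 from new large subunits, by 0.89 ± 0.07 (adjusted p = 5.42e-10). Of the assembly factors in 2D WT, 2 were called higher and 7 lower (all genes 20.1% and 19.2%). Of 24 genes of RNA polymerases I and III, 14 and 10 were called higher and 4 and 4 lower in 2D and 3D dSRF (9 higher and 7 lower in 3D without 3D dSRF 1), POLR1B among them (0.81 ± 0.05 (adjusted p = 4.22e-11) in 2D), while UBTF, a factor for ribosomal DNA transcription, changed by -0.59 ± 0.07 (adjusted p = 1.52e-06) in 2D WT and -0.52 ± 0.07 (adjusted p = 1.88e-06) in 3D dSRF.

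Of 28 translation initiation factors, 1, 2 and 5 were called lower and 6, 4 and 5 higher in the 2D WT, dSAP and dSRF lines, and of 20 regulators of ribosomal protein synthesis, 7, 6 and 9 lower and 4, 2 and 4 higher. The shares of all genes there were 19.2%, 15.4% and 31.5% lower and 20.1%, 17.5% and 34.5% higher. MYC, which drives ribosome production, changed by 1.84 ± 0.10 (adjusted p = 5.18e-12) in 3D dSRF and by -1.63 ± 0.10 (adjusted p = 1.9e-10) in WT in 3D against 2D. Against control it was not called in 2D dSRF (-0.009 ± 0.096 (adjusted p = 0.942)), 2D WT, 2D dSAP or 3D WT. Its 3D dSRF value includes the 3D dSRF 1 library and is not given without it. The mTOR inhibitors moved apart in 2D dSRF: SESN2 rose by 1.65 ± 0.12 (adjusted p = 2.99e-10) and DDIT4 stood at -3.31 ± 0.18 (adjusted p = 1.07e-11). Both were called in the same directions in 2D WT and 2D dSAP, SESN2 at 1.025 ± 0.12 and 0.82 ± 0.12 and DDIT4 at -0.91 ± 0.16 and -1.28 ± 0.16. Of 7 dedicated chaperones of ribosomal proteins, 2 were called lower and 2 higher in 2D dSRF, and of 6 paralogues 2 lower, RPS27L with -0.88 ± 0.10 (adjusted p = 2.4e-07).

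**Figure D5:**
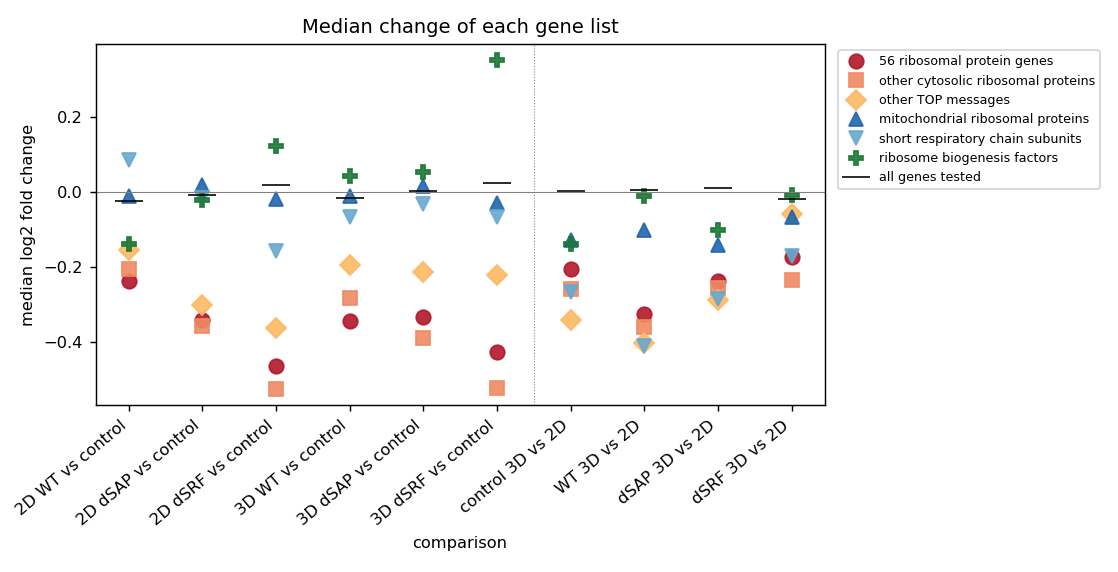
Median log2 fold change (vertical axis) of the 56 genes, 5 related gene lists and all genes tested, in each of 10 comparisons (horizontal axis; the dotted line separates comparisons with control from those of 3D with 2D). The 56 genes, the other cytosolic ribosomal proteins and the other TOP messages lie below all other lists in the first 6 comparisons; in 3D against 2D the short respiratory chain subunits are as low.

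All 56 members have a shorter effective length than the median gene tested, and are abundant, so genes like them in either respect were measured. Of 728 genes of like length, the medians were -0.06, -0.13 and -0.08 in the 2D WT, dSAP and dSRF lines and -0.10, -0.10 and -0.09 in 3D. Of the 1066 genes of like level they were 0.02, -0.02 and -0.17 and 0.05, -0.01 and -0.03. The short subunits of the respiratory chain (46 genes) had medians of 0.08, -0.02 and -0.16 and -0.07, -0.03 and -0.07 against control, and of -0.27, -0.41, -0.28 and -0.17 in 3D against 2D, where 30, 40, 31 and 9 were called lower (all genes 24.4%, 25.7%, 23.5% and 9.84%). Without 3D dSRF 1 their median was -0.20 in 3D dSRF against control. In dSRF in 3D against 2D it was -0.31, with 34 called lower (all genes 28.4% in that fit). Against control the members' medians were thus lower than those of all 3 sets, and in 3D against 2D they were not lower than those of the respiratory chain subunits in control, WT or dSAP.

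Other RNA classes moved with some groups. Of 39 replication-dependent histone genes, whose messages carry no poly(A) tail, 24, 18 and 37 were called lower in the 2D WT, dSAP and dSRF lines and 2, 3 and 37 in 3D. The shares of all genes were 19.2%, 15.4% and 31.5% in 2D and 17%, 13.1% and 31.3% in 3D. Of 13 mitochondrial genome genes, 0, 0 and 1 were called lower in 2D and 0, 0 and 7 in 3D. The part of these histone and mitochondrial genes in the ribosomal protein results was not tested.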

How the data were processed

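RNA was measured by sequencing in 24 libraries. The labels' protocols describe total RNA depleted of ribosomal RNA, while their molecule field reads polyA RNA. Reads were quality-checked with FastQC and assigned with Salmon (version written as 11.3) on hg38, per the submitters' processing notes, and for the annotation the sources used here give nothing. The authors deposited estimated counts per gene from Salmon, which are not whole numbers, and TPM values per gene from the same run, per the labels and the tables. All sample columns were used.

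The expected counts were rounded and fitted with edgeR 4.0.16 in R 4.3.3: filterByExpr, TMM factors (0.89 to 1.09) and 1 robust quasi-likelihood model with 8 groups and 16 residual degrees of freedom. Fitting all groups together gives 1 estimate of the spread (coefficient of variation 13.1%). Calls used a threshold of 0.05 on Benjamini-Hochberg adjusted p-values over all 14986 genes. Standard errors are the fold change divided by the square root of F. GENCODE 29 gave symbols to 34436 of 37247 gene ids, and the 2811 others held 2.30% to 3.15% of counts. The procedure was also run on simulated data, in which a small set of genes was changed in 1 group and no library stood apart. That run does not cover a library such as 3D dSRF 1, or comparisons in which many genes change. Alternatives were RLE size factors, library totals alone, no filter, DESeq2 1.42.0, limma 3.58.1 on log2 TPM with pseudocounts of 1 and 0.1 (those folds are on the log2(TPM + pseudocount) scale), a replicate block, only the libraries compared, each library left out, and, chosen after seeing the data, adding pseudogene rows to each member. Replicate numbers were checked by correlating deviations from group means, for control with each line and for 2D with 3D, and no same-numbered pair correlated over 0.1. Some counts of a member may lie in its pseudogene rows (over 1% for 7 members).

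The members and lists were chosen with earlier results of these data known. Genes named are 10 fixed members, up to 5 called members with the largest rise and the largest fall in each comparison, the 2 most and 2 least abundant per length, up to 4 called genes of each other list, and MRTFA, with RPS7, RPL24, RPL38, EEF1D, EIF4B and EIF3H added after their values were seen. The total counts gave standard errors of 0.0554 to 0.165 (median 0.0904) on the log2 scale for the members in the comparisons with control. Figures were drawn with Python 3.11.15.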

Additional observations from a re-analysis of the deposited data

Results flagged for a closer look

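The effect of dSRF differed between cultures for 3 members by the interaction test of edgeR (adjusted p over all genes). RPL3 had a difference of 0.35 ± 0.09 (adjusted p = 0.00497), and 0.26 ± 0.07 (adjusted p = 0.00213) without the library titled 3D dSRF 1. RPL15 had a difference of 0.25 ± 0.09 (adjusted p = 0.0407), and 0.13 ± 0.05 (adjusted p = 0.04998) without it. RPLP1 had a difference of -0.26 ± 0.09 (adjusted p = 0.0482), and -0.33 ± 0.08 (adjusted p = 0.00179) without it.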

How the results depend on the processing

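Counts of members called in either direction moved by over 1.5 times under these alternatives. The shares of all genes called in the fits of this section are not given beside the counts. With library totals alone the counts were 50 in 2D WT against control, 0 and 18 in 2D dSAP and dSRF against WT, 1 in 3D dSAP against WT, and 13, 26 and 12 for control, WT and dSAP in 3D against 2D. That scaling moved the median of all genes by over 0.1 (-0.17 in 2D WT and 0.13 in dSAP in 3D against 2D, for example), and relative to it the members' median stayed at -0.21 in 2D WT and -0.25 in dSAP in 3D against 2D. With no filter they were 16 in 2D WT, 0 in 2D dSAP against WT, 18 and 2 for control and dSRF in 3D against 2D, and 1 for the dSRF interaction. DESeq2 called 4 in 2D dSAP against WT. limma with either pseudocount called 46 in 2D WT, 0 and 19 in 2D dSAP and dSRF against WT, 1 in 3D dSAP against WT, and 18 and 18 for control and dSAP in 3D against 2D. With only the libraries compared they were 45 in 2D WT, 33 in 2D dSAP against WT, 27 in 3D dSRF against control, 4 and 0 in 3D dSAP and dSRF against WT, 44 and 0 for control and dSRF in 3D against 2D, and 8, 1 and 1 for the WT, dSAP and dSRF interactions. The cause was not tested.

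None of 30 same-numbered pairs (control with each line, and 2D with 3D) correlated over 0.1 in their deviations from group means (-0.131 to 0.0668). Yet replicate 3 held the lowest mitochondrial genome share in 2D control, WT, dSAP and dSRF (0.398, 0.511, 0.549 and 0.488% of counts). RPL27 was highest in replicate 2 of the same groups (91.3, 93.7, 86.1 and 81.3 CPM). In 3D neither held for every line, and other members were not counted this way. Whether replicate numbers mark a shared batch is thus not settled. With a replicate block the counts against control were 24, 43 and 52 for the WT, dSAP and dSRF lines of 2D and 40, 41 and 51 for those of 3D, and it moved 2D dSAP against WT from 1 to 0 and the dSRF interaction from 3 to 1.

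Leaving out 1 library at a time gave 9 to 43 in 2D WT, 0 to 18 and 23 to 44 in 2D dSAP and dSRF against WT, 0 to 3 and 4 to 42 in 3D dSAP and dSRF against WT, 13 to 43, 32 to 52, 19 to 38 and 1 to 50 for control, WT, dSAP and dSRF in 3D against 2D, and 0 to 7, 0 to 1 and 1 to 18 for the interactions. The counts against control in the other 5 comparisons stayed within 1.5 times when a library was left out.

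Values near 0 changed sign in 6 members. RPL9 in 3D WT became -0.11 with library totals, -0.036 with limma and -0.015 to 0.071 with a library left out. RPS27A in 3D WT became -0.14 to 0.055 with a library left out. RPL27 in 2D WT became 0.00042 with no filter, 0.0035 with the libraries compared and -0.071 to 0.033 with a library left out, and in 3D WT -0.30 to 0.0021. RPL38 in 2D WT became -0.080 to 0.017 with a library left out. RPS9 in 3D WT became -0.19 to 0.095 with a library left out, and in 3D dSAP 0.047 and 0.048 with limma and -0.13 to 0.16 with a library left out. RPS7 in 2D dSAP became -0.041 to 0.019 with a library left out. 7219 other values of named members kept their direction and side of the threshold, 329 lost the call and 151 gained it.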
